A study of Homo sapiens with 29 samples.

Results

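In batch 3 of this series, 3 libraries of human β cells that had received conditioned medium from cells making mutant CEL (MUT) were set against 3 that had received medium from empty-vector cells (EV). The comparison uses 6 of the 29 libraries of the series, chosen by the medium and batch in their labels. All cultures were EndoC-βH1, a β-cell line derived from human fetal pancreas, kept for 10 days in medium that had first been conditioned for 3 hours by HEK293 cells, which derive from embryonic human kidney. These stably overexpressed mutant CEL in the MUT group and carried the vector alone in the EV group. The medium was filtered, brought to equal protein and changed daily in both groups, so both groups share the exposure to HEK293 products. The amino acid change of the mutant CEL is not given in the sources used here, and nothing in the labels says whether libraries of a group came from separate cultures, so p-values measure the spread between libraries, which may be technical.

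CEL is carboxyl ester lipase, a digestive enzyme that acinar cells of the exocrine pancreas secrete and that splits cholesterol esters and other lipid esters. Dominant changes in its gene cause MODY8, a diabetes that follows disease of the exocrine pancreas. The design asks whether what mutant-CEL cells release reaches β cells, which make insulin and depend on the endoplasmic reticulum, mitochondria and granule enzymes to process and release it.

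The libraries held 30837484, 31914342 and 30089143 estimated counts in MUT and 31760763, 35078298 and 32864479 in EV. After removal of low entries, 19817 gene entries were tested with edgeR's quasi-likelihood test. An entry was called where its p, adjusted over all entries by the Benjamini-Hochberg method, was under 0.05. Levels are CPM, counts scaled to a common library size by TMM. Changes are log2 fold changes of MUT over EV with their standard errors, so a positive value means a higher level in MUT. INS took 1.60, 1.92 and 1.91% of all counts in MUT and 1.35, 1.32 and 1.23% in EV, and the 26 tested members of a β-cell transcription factor list summed to between 4341 and 4457 CPM in MUT and between 4387 and 4512 CPM in EV.

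The numbers in the library titles divide MUT from EV in batch 3. The MUT libraries are numbered 28 to 30 and the EV libraries 22 to 24. WT library 3 of batch 3, grown in medium of wild-type CEL, is number 27, and EV library 2 of batch 1 is number 31, out of sequence with its own batch. These 5 libraries, from 3 media and 2 batches, shared levels of several genes that the other 24 did not reach. FGF23, which encodes a phosphate-regulating hormone of bone, had 28.4, 26.7 and 14.3 CPM in the MUT libraries, 13.0 CPM in WT library 3, 35.7 CPM in EV library 2 of batch 1 and between 0.580 and 2.11 CPM in the 24 others, when all 29 libraries were scaled together. Of the 343 entries called higher in MUT than in EV, 82.8% were higher in WT library 3 than in both other WT libraries of batch 3, against 32.3% of all entries tested. Of the 261 called lower, 72.8% were below both other WT libraries there, against 33.5% of all. In EV library 2 of batch 1 the same shares, taken against the other 2 EV libraries of its batch, were 75.8% and 65.5%, against 34.9% and 35.5% of all. What the title numbers stand for is not given in the sources used here. All MUT libraries and no EV library of batch 3 have numbers from 27 up, so within these 6 libraries the medium and the title number cannot be told apart.

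**Figure D1:**
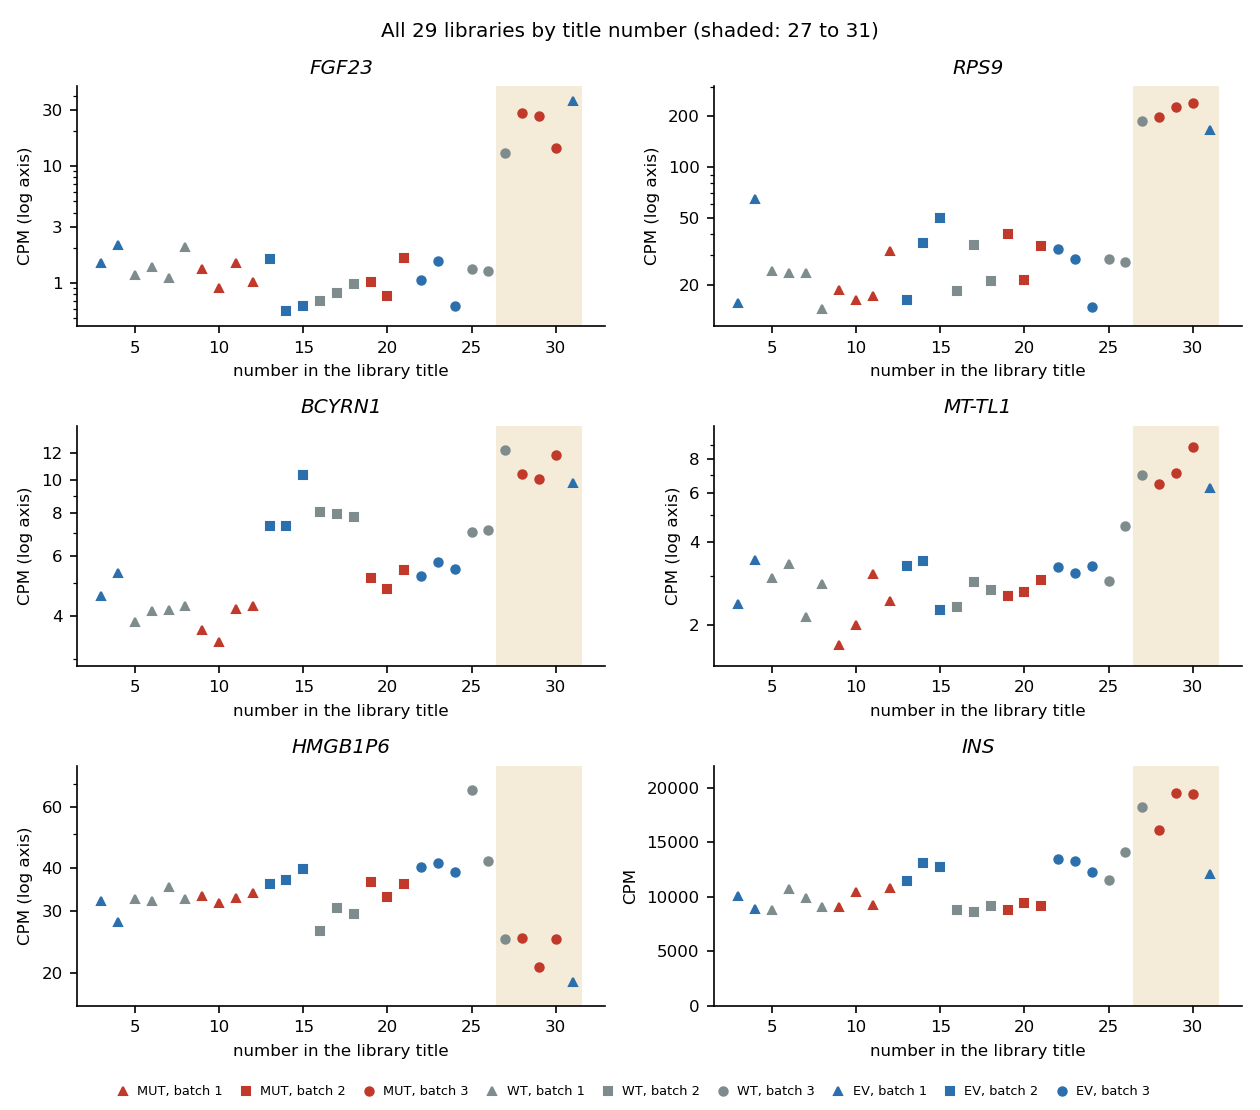
Level of 6 genes (CPM, TMM-scaled over all 29 libraries; log axis except INS) against the number in the library title, with colour for the medium, marker shape for the batch and shading for numbers 27 to 31. FGF23, RPS9 and MT-TL1 lie above and HMGB1P6 lies below all other libraries in the 5 shaded ones, whichever medium they had.

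A fit over all 29 libraries with 1 mean for each medium and batch and 1 term for numbers 27 to 31, added after the data were seen, separates the medium from the title number through WT library 3 and EV library 2 of batch 1. Its estimate of MUT over EV in batch 3 is given beside the results as the value with the title term. In that fit 6 of 22073 entries were called for MUT over EV (0.0272%), none of them higher, and 85 for the term itself (0.385%). Those 6 entries are copies with identical values. The same fit on the 9 batch 3 libraries alone called 3 entries (0.0147%). The term widens the standard errors, and it takes the title effect to be equal in all media and batches. Since the data were seen before the term was added, p-values for the term itself are no independent test.

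Among the 6 libraries, 604 entries were called (3.05%), 343 of them higher in MUT (1.73%) and 261 lower (1.32%). Most changes were small. The median size of a called change was 0.26, and 102 called entries differed by more than 1.5-fold, 57 higher and 45 lower. MUT and EV did not overlap in 603 of the called entries and in 5149 of all entries (26.0%). Of the called entries, 104 had no gene symbol, and 28 held the same values as another entry. Leaving out MUT library 1 raised the count to 1803, and leaving out any other of the 6 libraries gave 107 to 152. A fit of MUT, WT and EV of batch 3 together called 19, all of them among the 604. In that fit 32 of the named genes called here lost their call, among them INS (adjusted p = 0.17), FGF23 (0.081), RPS9 (0.12) and IGF2 (0.094), while SST kept it (0.021).

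The changes followed base composition. Over the entries with a GC content (91.5%), Spearman's correlation between the log2 fold change and the GC content of the transcripts was 0.36, and with transcript length it was -0.086. In the GC-richest decile of entries the median change was 0.078, and 3.20% were called higher and 0.110% lower. In the GC-poorest decile the median change was -0.10, with 0.331% called higher and 3.91% lower. The called entries had a median GC content of 57.0% where higher in MUT and 42.0% where lower, against 49.8% of all. Their median transcript lengths were 855 and 1247 bases, against 1043 bases over all entries.

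The GC trend was not even across libraries. Against the mean of the EV libraries, Spearman's correlation with GC was 0.11 in MUT library 1, 0.38 in library 2 and 0.40 in library 3. Each EV library set against the other EV libraries gave 0.20, 0.15 and -0.33, and the WT libraries against EV gave -0.42, 0.11 and 0.15. MUT libraries 2 and 3 thus lay above every EV and WT library, while MUT library 1 lay within their range. When the smooth GC and length trend of each library was removed by offsets, the correlation with GC was 0.012 and 767 entries were called (3.87%), 410 higher and 357 lower. They included 280 of the 343 higher and 182 of the 261 lower calls. How far the GC trend bears on the calls lost or kept was not tested.

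**Figure D2:**
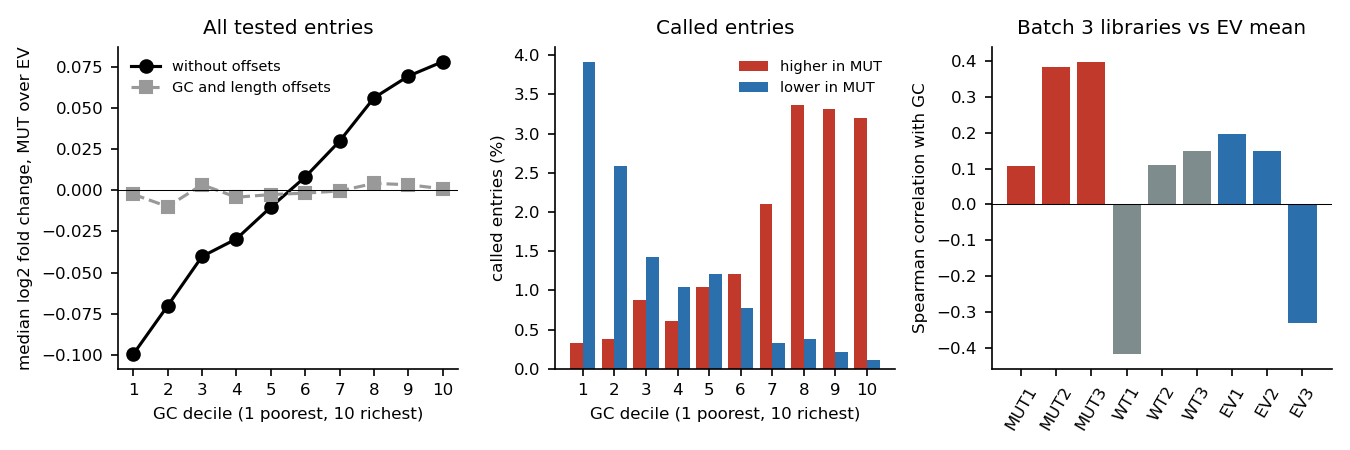
Left, the median log2 fold change of MUT over EV in deciles of entries by GC content, without and with GC and length offsets. Middle, the percentage of entries called higher or lower in each decile. Right, Spearman's correlation between GC content and each batch 3 library's log2 difference from the EV mean (for an EV library, from the other EV libraries). Calls higher in MUT gather in the GC-rich deciles and calls lower in MUT in the GC-poor deciles.

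The 2 largest changes among entries with a symbol and a mean of at least 5 CPM belonged to genes that set the 5 libraries numbered 27 to 31 apart. FGF23 (ENSG00000118972, chromosome 12, 4368227 to 4379728 in GENCODE release 29 on GRCh38) had 28.3, 26.5 and 14.2 CPM in MUT, against 1.07, 1.53 and 0.636 CPM in EV. Every MUT library was far above every EV library, and the change was 4.40 ± 0.31 (adjusted p = 4.8e-05). It was 0.52 ± 0.47 with the title term (adjusted p = 1), and the term itself was 3.88 ± 0.31 (adjusted p = 1.3e-08). RPS9 (ENSG00000170889, chromosome 19), which encodes a protein of the small ribosomal subunit, had 197, 226 and 238 CPM in MUT, against 32.4, 28.3 and 14.8 CPM in EV. Its change was 3.13 ± 0.19 (adjusted p = 1.7e-05), against 0.73 ± 0.55 with the title term. The term was added after the data were seen, and these 2 genes set its libraries apart. Their values with the term are thus no independent test of it.

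Among entries with a mean of at least 5 CPM the largest fall was that of ENSG00000274005, an entry without a symbol whose values were shared by 6 entries. It had 3.85, 2.24 and 2.39 CPM in MUT, against 29.0, 26.9 and 27.8 CPM in EV. Every MUT library was far below every EV library, with a change of -3.30 ± 0.14 (adjusted p = 5.6e-07). It was still -1.46 ± 0.22 with the title term (adjusted p = 0.0020), so these 6 entries were the calls of that fit. Its gene is not named here. Counts of genes with near-identical copies, RPS9 among them, are uncertain, since reads that match several copies are divided by estimation.

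Noncoding RNAs were among the entries with the smallest p. BCYRN1, a small cytoplasmic RNA of primates, had 10.3, 10.0 and 11.8 CPM in MUT, against 5.24, 5.68 and 5.48 CPM in EV, a change of 0.97 ± 0.093 (adjusted p = 0.00063). MT-TL1, a mitochondrial leucine tRNA, had 6.47, 7.08 and 8.81 CPM in MUT and 3.23, 3.04 and 3.27 CPM in EV, a change of 1.23 ± 0.13 (adjusted p = 0.0014). Neither is a messenger RNA, and both were near EV with the title term, at 0.086 ± 0.16 and 0.22 ± 0.28. HMGB1P6, a pseudogene of the chromatin protein HMGB1, was lower, with 25.1, 20.6 and 24.9 CPM in MUT, against 40.1, 41.0 and 39.0 CPM in EV. Its change was -0.77 ± 0.071 (adjusted p = 0.00054), against 0.14 ± 0.17 with the title term.

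AMIGO3, a neuronal adhesion protein whose gene overlaps GMPPB and RNF123, changed by 1.47 ± 0.14 (adjusted p = 0.00059), with 8.93, 11.0 and 10.2 CPM in MUT and 2.95, 4.38 and 3.45 CPM in EV. It had 8.80 CPM in WT library 3, and with the title term it was -0.032 ± 0.56. PEDS1-UBE2V1, a readthrough transcript that shares sequence with both of its parent genes, behaved otherwise. It had 16.4, 18.2 and 17.0 CPM in MUT, against 6.84, 4.46 and 5.15 CPM in EV, a change of 1.66 ± 0.13 (adjusted p = 0.00010), and with the title term it was 1.70 ± 0.58 (adjusted p = 1). ALOX5, which starts leukotriene synthesis, had 40.5 and 38.4 CPM in MUT libraries 1 and 2 but 17.0 CPM in library 3, against 16.0, 14.9 and 15.4 CPM in EV. Its change of 1.05 ± 0.25 passed only just (adjusted p = 0.049). It was lost with limma voom (adjusted p = 0.092) and with GC and length offsets (adjusted p = 0.061), and with the title term it was 0.87 ± 0.58 (adjusted p = 1).

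Insulin messenger RNA was higher in MUT. INS (ENSG00000254647, chromosome 11, 2159779 to 2161341) had 16013, 19378 and 19352 CPM in MUT, against 13421, 13175 and 12199 CPM in EV. All MUT libraries were above all EV libraries, and the change was 0.50 ± 0.066 (adjusted p = 0.0058). INS is GC-rich, at 64.5%, and with GC and length offsets the change was 0.39 (adjusted p = 0.0019). WT library 3, with title number 27, had 18250 CPM, against 11495 and 14129 CPM in the other WT libraries, and EV library 2 of batch 1 had 12081 CPM, against 10068 and 8906 CPM in the other EV libraries of its batch. The change with the title term was 0.067 ± 0.13 (adjusted p = 1), and the term itself was 0.43 ± 0.090 (adjusted p = 0.024). In bulk RNA, more insulin RNA per cell and more insulin-making cells cannot be told apart.

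Somatostatin messenger RNA was higher in MUT as well. SST (ENSG00000157005, chromosome 3, 187668906 to 187670399), the δ-cell hormone that restrains insulin release, had 197, 200 and 193 CPM in MUT, against 135, 131 and 127 CPM in EV. The MUT libraries were alike and stood above every EV library. The change was 0.59 ± 0.037 (adjusted p = 1.7e-05), and with the title term it was 0.45 ± 0.12, with an unadjusted p of 0.00061 and an adjusted p of 0.88. The WT libraries of batch 3 had 122, 154 and 161 CPM. SST was the 1 called gene among 14 tested islet hormones other than insulin, against 3.05% of all entries. The list's median change was 0.13, against -0.0008 over all entries. That median was 0.064 with GC and length offsets, 0.012 without MUT library 1 and between 0.052 and 0.13 without any other library.

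The median change of 26 genes of insulin production and prohormone processing was 0.039. Against the EV mean the list's median stood at 0.042, 0.051 and -0.0042 in MUT libraries 1 to 3. It stood at 0.0054, -0.0096 and 0.0048 in the EV libraries, so the groups overlapped. With GC and length offsets 6 of the 26 were called higher and 1 lower, against 3.87% of all entries in either direction. Without offsets 4 of the 26 rose and none fell, against 1.73% and 1.32% of all entries. Beside INS the genes that rose were UCN3, PCSK1N and PTPRN. UCN3, a peptide of mature β cells, had 64.0, 69.0 and 70.5 CPM in MUT, against 57.3, 58.6 and 57.3 CPM in EV, a change of 0.23 ± 0.045 (adjusted p = 0.029). PCSK1N, whose product inhibits a proinsulin-cutting protease, had 1152, 1300 and 1315 CPM in MUT and 1008, 1047 and 1123 CPM in EV, a change of 0.25 ± 0.055 (adjusted p = 0.041) that was lost with GC and length offsets (0.16, adjusted p = 0.11). PTPRN, a granule membrane protein, changed by 0.19 ± 0.043 (adjusted p = 0.043). These 3 were at 0.054 ± 0.10, 0.16 ± 0.16 and 0.070 ± 0.094 with the title term.

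No β-cell transcription factor was called among 26, against 3.05% of all entries, and the list's median change was -0.0016. PDX1, the master regulator of the insulin gene, had 450, 458 and 478 CPM in MUT and 505, 477 and 513 CPM in EV. The groups overlapped by less than 1 CPM, and the change of -0.11 ± 0.038 did not pass (adjusted p = 0.13), and with the title term it was -0.0018 ± 0.088. Of 32 tested genes of glucose sensing and ion channels, 1 rose and none fell, against 1.73% and 1.32% of all entries. KCNK17, a potassium leak channel, rose by 0.26 ± 0.040 (adjusted p = 0.011). It was at 0.063 ± 0.11 with the title term. IGF2, the growth factor gene next to INS, had 1172, 1206 and 1250 CPM in MUT, against 987, 1030 and 1046 CPM in EV, a change of 0.24 ± 0.036 (adjusted p = 0.0093). It was 0.13 ± 0.11 with the title term. The readthrough gene INS-IGF2 shares sequence with both genes, so their reads may have been split.

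TXNIP, a glucose-induced inhibitor of thioredoxin, and FXYD2, a subunit that tunes the sodium pump, were higher too. TXNIP had 7.96, 6.92 and 9.78 CPM in MUT, against 4.64, 3.24 and 5.66 CPM in EV, a change of 0.87 ± 0.19 (adjusted p = 0.038). The value with the title term was as large, 0.93 ± 0.20, with an unadjusted p of 8.2e-05 and an adjusted p of 0.23. FXYD2 had 51.2, 53.3 and 54.4 CPM in MUT, against 40.7, 36.7 and 38.3 CPM in EV, a change of 0.46 ± 0.050 (adjusted p = 0.0016), and was at 0.053 ± 0.13 with the title term. MUT and EV libraries did not overlap in either gene, and lay closest in TXNIP. The WT libraries of batch 3 had 4.80, 4.29 and 4.77 CPM of TXNIP, within the EV range.

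**Figure D3:**
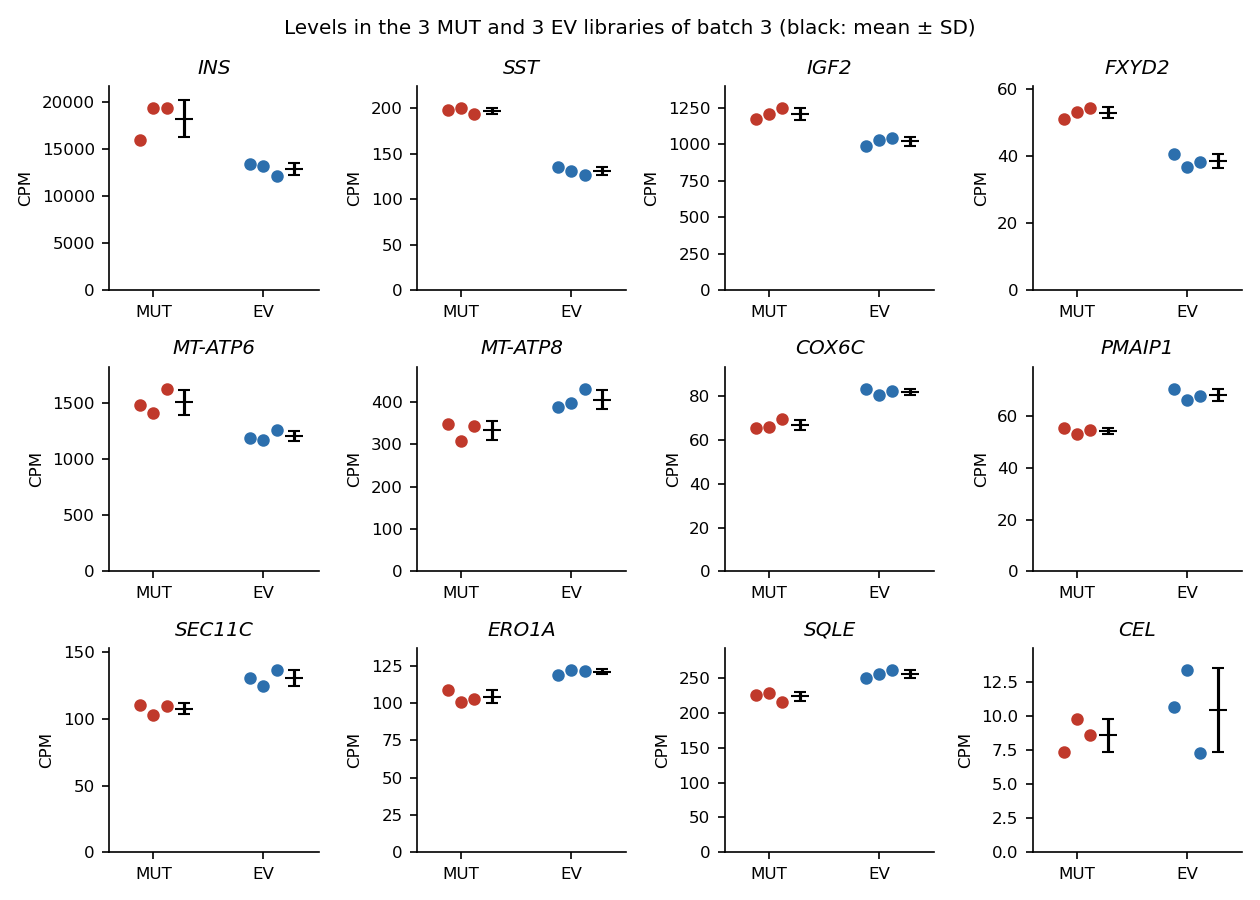
CPM of 12 genes in each MUT and EV library of batch 3 (points, libraries 1 to 3 from left to right), with the mean and SD of each group in black. In every gene but CEL the MUT and EV libraries do not overlap, and all axes start at 0.

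Of 45 chaperones and import factors of the endoplasmic reticulum, SEC11C was called lower and none higher, against 3.05% of all entries called in either direction. Their median change was -0.026, against 0.0001 with GC and length offsets and 0.041 with the title term. The groups did not overlap in 17 members that were lower and 5 that were higher, against 26.0% of all entries. SEC11C, a catalytic subunit of the signal peptidase, had 110, 103 and 110 CPM in MUT, against 131, 125 and 137 CPM in EV, a change of -0.28 ± 0.045 (adjusted p = 0.014). The title term put it at -0.035 ± 0.082. HSPA5, the main chaperone of the compartment, had 810, 825 and 819 CPM in MUT and 798, 823 and 823 CPM in EV, with a change of 0.0058 ± 0.030 (adjusted p = 0.94).

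None of 32 targets of PERK and ATF4 was called in either direction, against 3.05% of all entries. The list's median change was 0.026. DDIT3, the stress factor CHOP of that pathway, had 23.1, 24.1 and 23.0 CPM in MUT and 22.9, 23.9 and 21.8 CPM in EV, with overlapping groups and a change of 0.034 ± 0.055 (adjusted p = 0.78). PDX1, HSPA5 and DDIT3 fall outside the rule for naming genes and were chosen after their values were seen. Of 27 genes of ER-associated degradation, RNF5, a ubiquitin ligase of the membrane, was the 1 called, at 0.32 ± 0.064 (adjusted p = 0.030). ERO1A, the oxidase that helps form disulfide bonds and is also induced by low oxygen, was lower. It had 109, 101 and 103 CPM in MUT, against 119, 122 and 122 CPM in EV, a change of -0.21 ± 0.039 (adjusted p = 0.024), and was the 1 called of 15 hypoxia targets. The degradation and hypoxia lists stand against 3.05% of all entries called in either direction. RNF5 was at 0.20 ± 0.11 and ERO1A at -0.017 ± 0.075 with the title term.

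PMAIP1, which encodes the cell-death protein NOXA, had 55.2, 52.9 and 54.5 CPM in MUT, against 70.4, 66.0 and 67.6 CPM in EV. It was lower in every MUT library, with a change of -0.33 ± 0.042 (adjusted p = 0.0048), and at -0.16 ± 0.079 with the title term. It was 1 of 2 called lower among 24 p53 targets, where none was called higher, against 1.32% and 1.73% of all entries. The median change of these targets was 0.048. Of 36 apoptosis regulators 2 were called higher and 2 lower, against 1.73% and 1.32% of all entries, with PMAIP1 and TXNIP among these 4. Of 47 genes of DNA replication and mitosis 2 were called lower and none higher, against 1.32% and 1.73% of all entries. CENPF, a kinetochore protein, was 1 of these 2, at -0.28 ± 0.053 (adjusted p = 0.027). No member was called among 33 immediate early and ERK feedback genes, 30 interferon and HLA class I genes or 18 genes of the NF-kappaB response. Over all entries 3.05% were called.

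Genes of energy production were called in both directions. Of the 13 protein-coding genes of the mitochondrial genome, 3 rose and 2 fell, against 1.73% and 1.32% of all entries. The median change of the 13 was 0.11. Against the EV mean the list's median stood at 0.11, 0.0076 and 0.22 in MUT libraries 1 to 3. It stood at -0.033, -0.033 and 0.066 in the EV libraries, so the groups overlapped. MT-ATP6, a subunit of the ATP synthase, had 1477, 1405 and 1622 CPM in MUT, against 1190, 1166 and 1256 CPM in EV, a change of 0.32 ± 0.051 (adjusted p = 0.013). MT-ND4L, a complex I subunit, changed by 0.31 ± 0.046 (adjusted p = 0.0095). MT-ATP8, whose reading frame overlaps that of MT-ATP6, went the other way, with 348, 308 and 343 CPM in MUT and 388, 396 and 430 CPM in EV, a change of -0.28 ± 0.053 (adjusted p = 0.026). Reads may have been split between the overlapping MT-ATP6 and MT-ATP8. With the title term MT-ATP6, MT-ND4L and MT-ATP8 were at 0.016 ± 0.11, -0.017 ± 0.12 and -0.092 ± 0.10. All mitochondrial entries together held 4.73, 4.50 and 5.05% of the counts in MUT and 4.29, 4.36 and 4.64% in EV, so the groups overlapped.

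Of 76 nuclear genes of oxidative phosphorylation, 5 rose and 2 fell, against 1.73% and 1.32% of all entries. The list's median change was 0.054, against -0.0008 over all entries, and 58 members lay above 0. NDUFA7, a complex I subunit, had 31.6, 35.4 and 32.7 CPM in MUT, against 28.0, 22.6 and 23.8 CPM in EV, a change of 0.42 ± 0.078 (adjusted p = 0.025). COX6C, a complex IV subunit, had 65.2, 65.9 and 69.5 CPM in MUT, against 83.2, 80.2 and 82.0 CPM in EV, a change of -0.29 ± 0.040 (adjusted p = 0.0073). COX6C lies below and NDUFA7 above the median GC content, and both stayed called with GC and length offsets. NDUFA7 was at 0.12 ± 0.11 and COX6C at 0.026 ± 0.087 with the title term. The list did not separate the groups in every library: against the EV mean its median stood at 0.0087 in MUT library 1, 0.081 in library 2 and 0.11 in library 3, and at 0.032 in EV library 1.

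Of 79 cytosolic ribosomal proteins, 10 rose, RPS9 among them, and 3 fell, against 1.73% and 1.32% of all entries. The list's median change was 0.061. With GC and length offsets 10 were called higher and 9 lower. RPS14, of the small subunit, had 210, 234 and 230 CPM in MUT, against 187, 177 and 175 CPM in EV, a change of 0.32 ± 0.047 (adjusted p = 0.0090), and was at -0.016 ± 0.089 with the title term. Many of these genes have processed pseudogenes with near-identical sequence, so their estimated counts are uncertain. Against the EV mean the list's median stood at -0.020 in MUT library 1, 0.079 in library 2 and 0.10 in library 3. It stood at 0.037 in EV library 1, so the groups overlapped.

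SQLE, an enzyme of cholesterol synthesis, had 225, 229 and 216 CPM in MUT, against 250, 255 and 261 CPM in EV, a change of -0.19 ± 0.036 (adjusted p = 0.025). It was the 1 call among 29 genes of that pathway, against 3.05% of all entries. With the title term SQLE was at 0.025 ± 0.063. PLIN2, which coats lipid droplets, had 47.9, 49.9 and 47.4 CPM in MUT, against 41.0, 43.1 and 40.6 CPM in EV, a change of 0.22 ± 0.045 (adjusted p = 0.031). Of 41 genes of fatty acid and triglyceride metabolism 2 were called higher and none lower, against 1.73% and 1.32% of all entries. PLIN2 was 1 of these 2, and was at 0.14 ± 0.069 with the title term.

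Of 42 genes of autophagy and the lysosome, 2 rose and 1 fell, against 1.73% and 1.32% of all entries. The list's median change was 0.062. GRN, the lysosomal protein progranulin, rose by 0.24 ± 0.043 (adjusted p = 0.020), and GABARAPL2, which decorates autophagosomes, fell by 0.17 on the log2 scale (adjusted p = 0.037). GSS, which completes glutathione synthesis, had 191, 204 and 199 CPM in MUT, against 173, 166 and 170 CPM in EV, a change of 0.22 ± 0.037 (adjusted p = 0.016). DYNLRB1, a light chain of the motor dynein, was among the 30 entries with the smallest p, with 255, 259 and 260 CPM in MUT, against 210, 202 and 205 CPM in EV. It changed by 0.33 ± 0.033 (adjusted p = 0.00090). With the title term GRN was at 0.18 ± 0.11, GABARAPL2 at 0.027 ± 0.066, GSS at 0.063 ± 0.058 and DYNLRB1 at 0.12 ± 0.073.

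**Figure D4:**
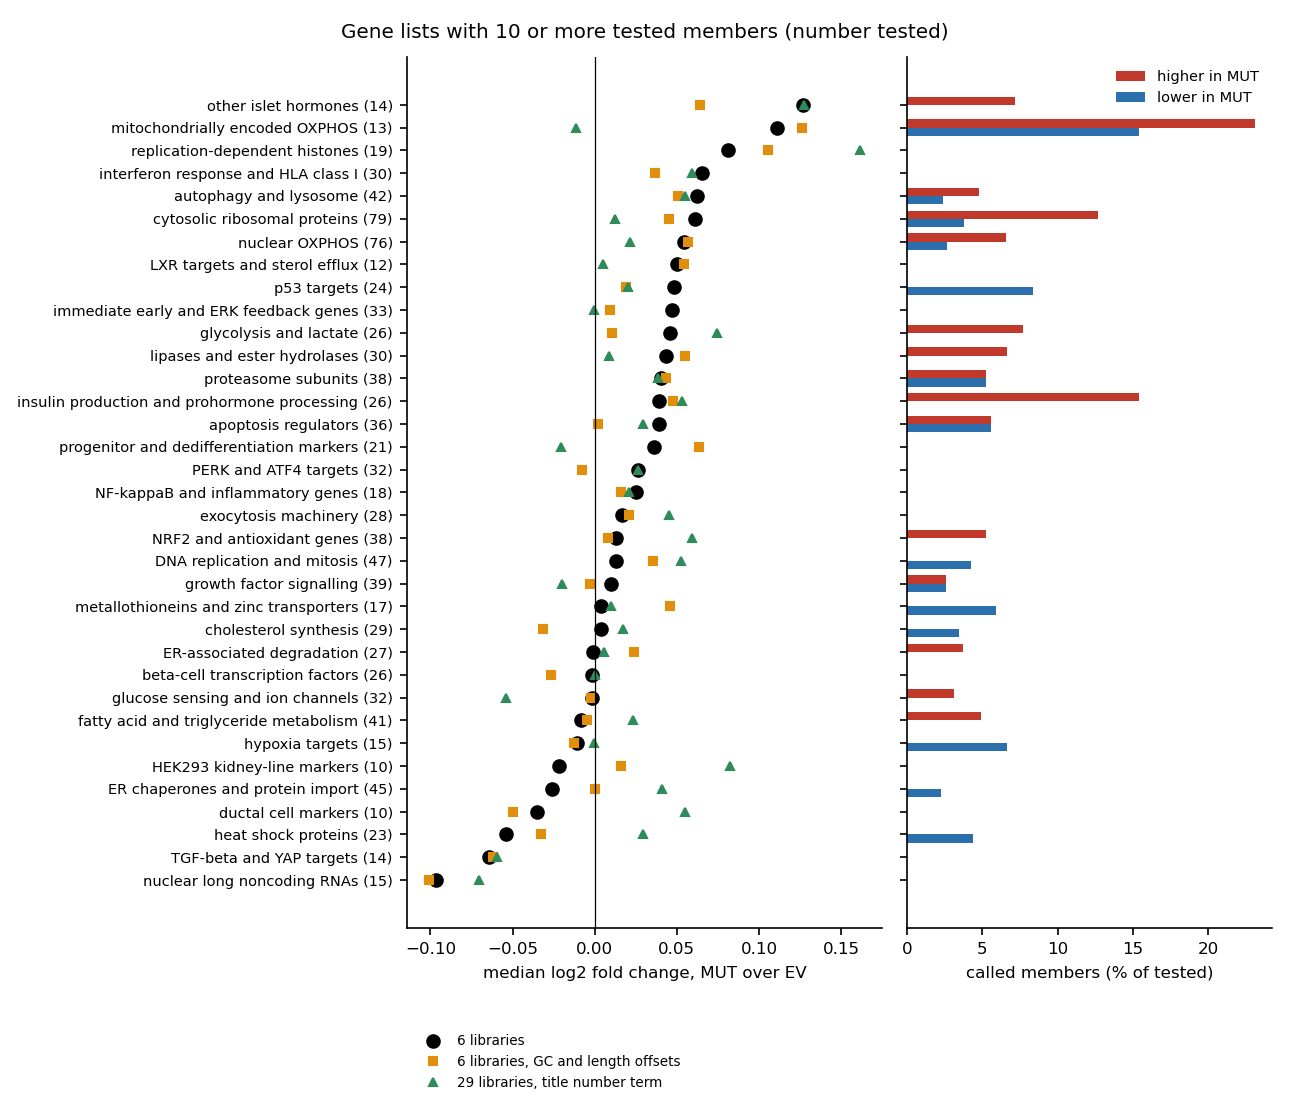
Left, the median log2 fold change of MUT over EV in each gene list with 10 or more tested members (number tested in brackets), from the 6 libraries, with GC and length offsets, and with the title number term over 29 libraries. Right, the percentage of tested members called higher and lower in the 6 libraries. Medians from the 6 libraries lie between -0.097 and 0.13.

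Over the 604 called entries the median size of the change was 0.26 from the 6 libraries and 0.12 with the title term over 29 libraries, and 541 of the 604 kept their sign. In the fit on the 9 batch 3 libraries the median size was 0.10 and 468 kept their sign. Of the 85 entries called for the title term, 54 were among the 604, and all 54 had the sign of the MUT over EV change. Spearman's correlation of the change with GC content was 0.11 for MUT over EV with the term and 0.22 for the term itself. Of the called genes given here by symbol, SST, FGF23, RPS9, ALOX5, TXNIP and PEDS1-UBE2V1 were at 0.45 or more with the term over 29 libraries. None of these passed the test across all entries there. Of these, FGF23 went from 4.40 to 0.52 and RPS9 from 3.13 to 0.73. ENSG00000274005, without a symbol, went from -3.30 to -1.46 and did pass. ENSG00000267228, also without a symbol and among the 30 smallest p, changed by 1.17 ± 0.10 from the 6 libraries. Over the 9 batch 3 libraries with the term it was 1.67 ± 0.20 (adjusted p = 0.032).

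**Figure D5:**
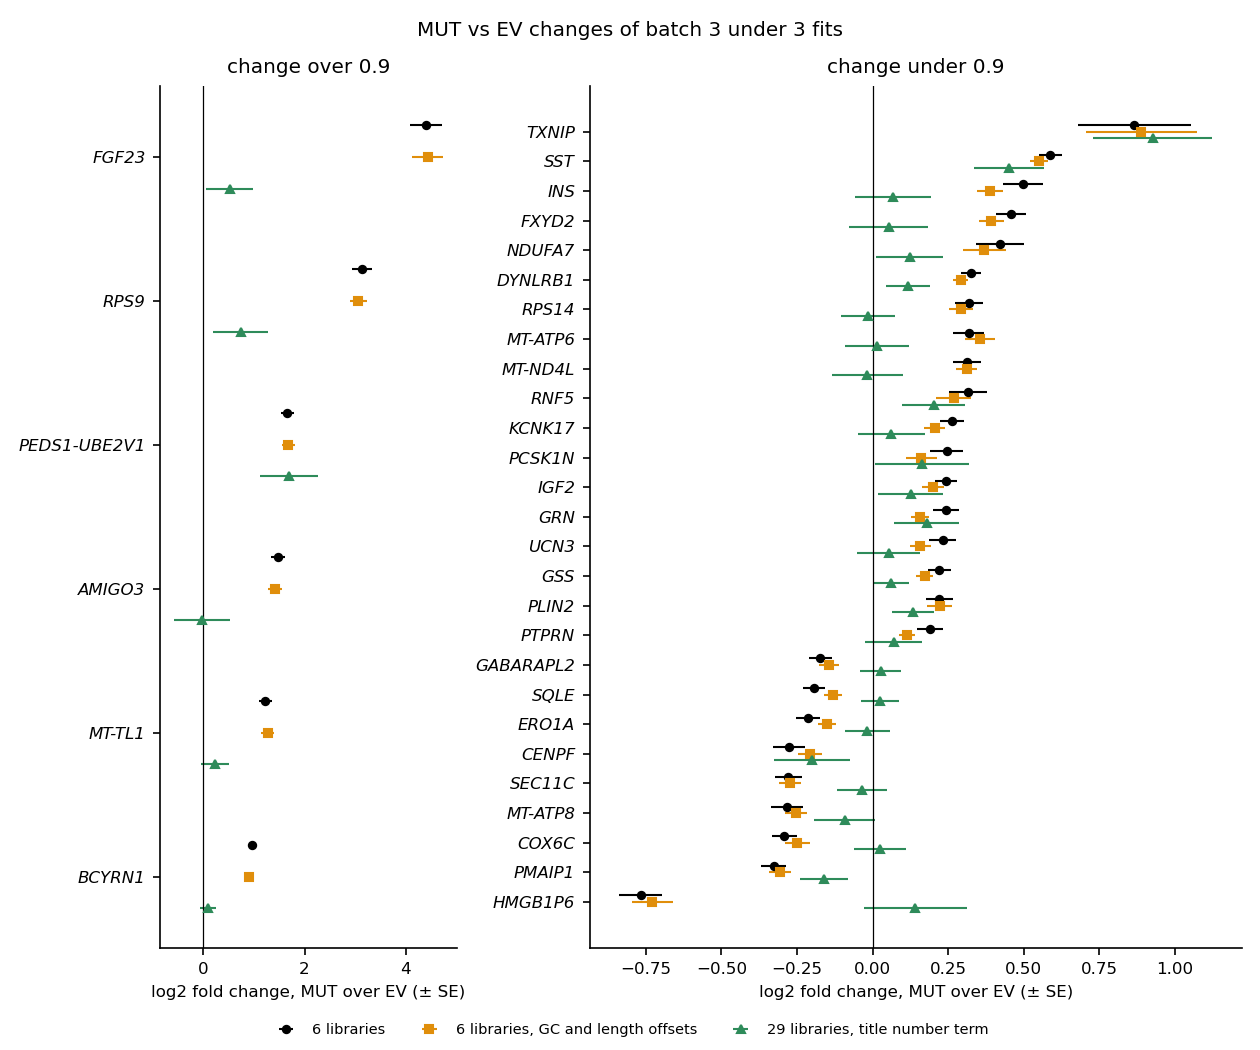
Log2 fold change of MUT over EV with its standard error for 33 named genes, from the 6 libraries (circles), with GC and length offsets (squares) and from 29 libraries with the title number term (triangles). The offsets moved most genes little, and the title term brought most closer to 0. With it FGF23 went from 4.40 to 0.52 and RPS9 from 3.13 to 0.73. SST, TXNIP and PEDS1-UBE2V1 were also at 0.45 or more with the term.

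The same contrast in the other batches was different. In a model of the 19 MUT and EV libraries, 2588 of 21577 entries changed differently in batch 3 than in batch 1 (12.0%) and 7341 differently than in batch 2 (34.0%). INS changed by -0.081 in batch 1 (adjusted p = 0.62) and by -0.44 in batch 2 (adjusted p = 0.00095), where it was lower in MUT. SST was higher in MUT in all 3 batches, at 0.26 in batch 1 (adjusted p = 0.043) and 0.16 in batch 2 (adjusted p = 0.048). In batch 1 it had 16.1 to 21.0 CPM in MUT and 14.2 to 16.4 CPM in EV, so the groups overlapped. In batch 2 it had 162 to 166 CPM in MUT, 144 to 151 CPM in EV and 223 to 241 CPM in WT. PMAIP1 was higher in MUT in batch 2, by 0.67 (adjusted p = 6.4e-08), and lower in batch 3. FGF23 changed by -3.44 in batch 1, where EV library 2, number 31, alone was high. Without that library 794 entries differed from batch 1, and with the title term 7 did. From batch 2, 4943 entries still differed with the title term. Spearman's correlation between the change and GC content was -0.39 in batch 1, -0.092 in batch 2 and 0.32 in batch 3 in this model.

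CEL and the tested genes of the acinar, ductal, stellate and HEK293 marker lists were not called without offsets, against 3.05% of all entries. SST of the islet hormone list was called, as given above. CEL RNA had 7.35, 9.80 and 8.64 CPM in MUT and 10.7, 13.4 and 7.27 CPM in EV, and the change of -0.28 ± 0.19 did not pass (adjusted p = 0.42). The HEK293 cells carried the constructs, so this transcript of the β cells is no check on the medium. Of 32 acinar markers 27 were under 1 CPM and 9 were at 0 in all 6 libraries, and the list summed to 54.3, 55.7 and 53.2 CPM in MUT and 55.1, 55.4 and 50.6 CPM in EV. Of 23 markers of the HEK293 line, 14 were under 1 CPM, and they summed to 429, 413 and 402 CPM in MUT and 414, 436 and 429 CPM in EV. PEG10, an imprinted gene at 294 to 324 CPM, and the keratin gene KRT18, at 67.7 to 75.1 CPM and also in the ductal list, made up most of that sum. Of the 10 tested HEK293 markers 4 had a change above 0, and the median change was -0.022. With GC and length offsets 1 of these HEK293 markers was called lower and none higher, against 3.87% of all entries in either direction. LHX1, a developmental transcription factor of this list picked after its values were seen, had 0.550, 1.01 and 2.19 CPM in MUT, against 0.251, 0.369 and 0.333 CPM in EV. Its groups did not overlap, and the change of 1.95 ± 0.48 did not pass (adjusted p = 0.055). LHX1 passed without MUT library 1 (adjusted p = 0.010) and with the replicate number as a block (adjusted p = 0.050, just under the threshold), and was at 1.48 ± 1.1 with the title term (adjusted p = 1). The 19 ductal markers summed to 1684, 1682 and 1683 CPM in MUT and 1733, 1720 and 1735 CPM in EV. This sum was slightly lower in every MUT library than in every EV library, and its part in the results was not tested. With GC and length offsets 1 of the 10 tested ductal markers was called lower and none higher, against the same 3.87%. The 18 stellate and fibroblast markers summed to 17.9, 21.7 and 20.8 CPM in MUT and 19.3, 19.8 and 18.3 CPM in EV. In the acinar, HEK293 and stellate sums the groups overlapped.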

How the data were processed

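The series holds 29 RNA libraries of EndoC-βH1 cells, and the 3 MUT and 3 EV libraries of batch 3 were compared here. The values are estimated counts for each Ensembl gene as deposited, and the submitters' processing notes name fastp and kallisto. Versions, the build and the annotation were not given in the sources used here. Where transcripts are alike, kallisto shares reads out by estimate, which leaves genes with copies uncertain. Symbols were matched by identifier (59369 of 66025 entries), and coordinates, GC content and length came from GENCODE release 29 (GRCh38).

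Estimated counts were rounded, filtered with filterByExpr and scaled by TMM, and MUT and EV were compared by the quasi-likelihood F test of edgeR 4.0.16 under R 4.3.3, with Benjamini-Hochberg adjustment. Each standard error is the size of the change over the square root of F. Offsets for GC content and length were natural splines with 5 degrees of freedom per library. Alternatives used DESeq2 1.42.0, voom of limma 3.58.1, other scalings, filters and sets of libraries. The scripts were tested on simulated data.

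The comparison, its genes and its 37 lists were chosen with earlier results of these data known. Named genes are CEL, INS, the 30 smallest p, the 10 highest and 10 lowest changes with a symbol (mean of at least 5 CPM, unadjusted p under 0.01, no overlap) and up to 4 members per list. The text uses a part of them, picked after their values were seen. Squared differences between pairs of replicates averaged 3.50 to 5.76 times their sampling variance. Figures were drawn with matplotlib 3.10.9.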

Additional observations from a re-analysis of the deposited data

Results flagged for a closer look

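The MUT over EV change of most named genes differed between batch 3 and the other batches, by the interaction test of edgeR in the model of 19 libraries. Against batch 1 this held for 31 of 40 named genes, and for 12.0% of all entries tested. Most of these genes were chosen by their p or change in batch 3, so the choice itself raised their share. The change was higher in batch 3 by 7.85 for FGF23, 5.09 for RPS9, 2.58 for AMIGO3, 2.03 for MT-TL1, 1.76 for PEDS1-UBE2V1, 1.72 for BCYRN1, 0.90 for FXYD2, 0.71 for MT-ATP6, 0.69 for MT-ND4L, 0.62 for TXNIP, 0.59 for NDUFA7, 0.59 for INS, 0.49 for RPS14, 0.48 for IGF2, 0.40 for KCNK17, 0.37 for GSS, 0.34 for DYNLRB1, 0.33 for SST, 0.32 for PLIN2, 0.32 for GRN and 0.29 for PTPRN on the log2 scale. The differences were negative at -3.84 for ENSG00000274005, -1.06 for HMGB1P6, -0.45 for PMAIP1, -0.41 for ERO1A, -0.40 for SQLE, -0.40 for CENPF, -0.39 for SEC11C, -0.37 for COX6C, -0.25 for GABARAPL2 and -0.20 for HSPA5. Of these 31, 25 held without EV library 2 of batch 1 and 1 with the title term.

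Against batch 2 the change differed for 29 of 40 named genes, chosen in the same way, against 34.0% of all entries. It was higher in batch 3 by 4.10 for FGF23, 3.23 for RPS9, 2.62 for AMIGO3, 1.67 for BCYRN1, 1.62 for PEDS1-UBE2V1, 1.37 for MT-TL1, 1.13 for IGF2, 1.11 for TXNIP, 0.94 for INS, 0.66 for NDUFA7, 0.49 for RNF5, 0.46 for RPS14, 0.44 for SST, 0.38 for GSS, 0.38 for MT-ND4L, 0.36 for PLIN2, 0.35 for MT-ATP6 and 0.19 for DYNLRB1. The differences were negative at -3.20 for ENSG00000274005, -0.99 for PMAIP1, -0.89 for SEC11C, -0.67 for HMGB1P6, -0.49 for CENPF, -0.42 for SQLE, -0.40 for COX6C, -0.35 for GABARAPL2, -0.34 for MT-ATP8, -0.29 for KCNK17 and -0.18 for HSPA5. With the title term 11 of these 29 held.

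In WT library 3 of batch 3, which is outside the MUT and EV comparison, FGF23 stood at 13.0 CPM and RPS9 at 187 CPM, above every EV library of the batch.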

How the results depend on the processing

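All 604 called entries that an alternative on the planned list tested kept their direction in it. Counts stayed within 1.5 times the 604 with limma voom (530), DESeq2 size factors (596), library size alone (615, of which 293 higher and 322 lower, against 343 and 261), a stricter filter (718), GC and length offsets (767) and offsets with the replicate block (486). They moved to 1344 with DESeq2 (695 higher, 649 lower), 1340 with quality weights in voom (708, 632), 1460 without a filter (763, 697; GC trend 0.15, length trend -0.028), 201 with all 29 libraries (152, 49) and 19 with the 9 of batch 3 (11, 8). With a replicate block the count was 210 (136, 74), but the correlations of same-numbered MUT and EV libraries were -0.097, 0.20 and -0.16, so the libraries share only a number. With offsets the GC and length trends were 0.012 and 0.019, and 0.013 and 0.019 with the replicate block too. Leaving out 1 library gave 107 to 1803 calls, 69 to 924 higher and 35 to 879 lower. The title term, chosen after seeing the data, left 6 calls over 29 libraries (0 higher, 6 lower), with 1031 entries at an unadjusted p under 0.05, a GC trend of 0.11 and a length trend of -0.038. Over 9 libraries it left 3 (2 higher, 1 lower), with 596, -0.015 and -0.033. Entries differing from batch 1 numbered 1335 with offsets, 934 to 2709 with 1 library left out, 7 with the title term and 794 without EV library 2 of batch 1. The cause of these moves was not tested.

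With the title term over 29 libraries the change had the other sign for AMIGO3 (-0.032), HMGB1P6 (0.14), SQLE (0.025), MT-ND4L (-0.017), COX6C (0.026), RPS14 (-0.016), GABARAPL2 (0.027) and DDIT3 (-0.058). Over 9 libraries it did for INS (-0.015), UCN3 (-0.024), PTPRN (-0.020), KCNK17 (-0.024), AMIGO3 (-0.41), HMGB1P6 (0.35), SEC11C (0.012), SQLE (0.0072), COX6C (0.10), RPS14 (-0.051), GABARAPL2 (0.051), CENPF (0.044), CEL (0.15) and DDIT3 (-0.14). HSPA5, which was not called, went to -0.0088 with library size alone and lay between -0.0061 and 0.015 with 1 library left out. LHX1, which was not called, passed in 5 alternatives. DESeq2 gave no adjusted p for 5 of the 40 named genes.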
